A study of Mus musculus with 18 samples.

Results

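The genes that write, copy and remove 5-methylcytosine were followed in mouse splenic B cells before and after stimulation through CpG DNA. The set was chosen by name and holds 10 genes, each found once in both kinds of count table: Dnmt1, Uhrf1, Cdca7 and Hells, which serve maintenance methylation; Dnmt3a and Dnmt3b, the de novo methyltransferases; Tet1, Tet2 and Tet3, the 5-methylcytosine dioxygenases; and Mbd2, a methyl-CpG reader. They are 10 of 40327 genes in the tables of the 129S1/SvImJ (129) allele and of 39147 genes in the tables of the CAST/EiJ (Cast) allele. All 10 lie on autosomes. The 6 samples analysed came from CD23+ B cells of the spleen of female F1 129S1/Cast mice. All were Xist+/-, with 1 mutant copy of Xist, and per the labels the inactive X was the Cast one in every sample, naive samples included. The naive group held 3 untreated samples, and the stimulated group held 3 samples kept in vitro with 1 µM CpG for 24 h. The series lists 18 samples, of which 12 from another cross are not analysed here. Ages, and whether the replicates were separate animals, are not given in the sources used here, so p-values measure the spread between these samples, which may be technical.

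DNA methylation is copied at each round of replication. UHRF1 binds hemimethylated CpG sites and brings in DNMT1, which methylates the new strand, and the CDCA7-HELLS remodelling complex opens nucleosomal DNA for this step. DNMT3A and DNMT3B set new marks, while TET enzymes oxidise 5-methylcytosine and thereby start its removal. Resting follicular B cells do not divide, and CpG DNA, the ligand of Toll-like receptor 9, drives them into the cell cycle.

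Upstream sequences are shown for the 4 maintenance genes because those genes moved together. RefSeq promoter sequences (GRCm38.p6) were matched by symbol for 9 of the 10 genes, all but Mbd2, and the 250 bases before each annotated start were searched on both strands for 4 spelled-out E2F-type motifs: TTTCCCGC, TTTGGCGC, TTTCGCGC and TTTGCCGC. E2F factors are known for their part in the transcription of S-phase genes. The windows below, written 5′ to 3′ on the gene's strand with the motif in capitals, are Dnmt1 (chr9:20952624-20952873, minus strand), Uhrf1 (chr17:56304063-56304312, plus strand), Cdca7 (chr2:72475969-72476218, plus strand) and Hells (chr19:38930740-38930989, plus strand).
Dnmt1: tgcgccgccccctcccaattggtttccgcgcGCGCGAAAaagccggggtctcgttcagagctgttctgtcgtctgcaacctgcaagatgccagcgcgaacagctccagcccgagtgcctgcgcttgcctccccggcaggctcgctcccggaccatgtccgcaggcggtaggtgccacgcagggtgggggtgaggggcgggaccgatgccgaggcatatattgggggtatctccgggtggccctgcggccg
Uhrf1: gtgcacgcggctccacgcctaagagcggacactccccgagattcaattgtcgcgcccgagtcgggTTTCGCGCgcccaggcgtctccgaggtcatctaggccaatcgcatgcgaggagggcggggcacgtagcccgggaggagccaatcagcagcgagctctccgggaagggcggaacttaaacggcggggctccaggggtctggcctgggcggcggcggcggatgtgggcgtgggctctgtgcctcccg
Cdca7: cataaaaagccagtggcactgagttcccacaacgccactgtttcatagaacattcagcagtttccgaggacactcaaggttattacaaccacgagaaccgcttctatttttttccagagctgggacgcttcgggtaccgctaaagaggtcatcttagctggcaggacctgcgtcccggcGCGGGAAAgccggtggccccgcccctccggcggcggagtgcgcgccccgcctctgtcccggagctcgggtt
Hells: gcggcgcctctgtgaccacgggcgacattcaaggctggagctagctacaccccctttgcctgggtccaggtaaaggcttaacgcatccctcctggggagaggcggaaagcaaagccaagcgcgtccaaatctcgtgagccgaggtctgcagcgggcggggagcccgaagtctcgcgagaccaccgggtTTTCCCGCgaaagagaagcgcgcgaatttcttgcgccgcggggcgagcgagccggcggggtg
In Dnmt1 and Cdca7 the motif is on the opposite strand and reads GCGCGAAA and GCGGGAAA. It began 219 bases before the annotated start of the window shown in Dnmt1, 185 in Uhrf1, 71 in Cdca7 and 62 in Hells. Another window of Dnmt1 (chr9:20952980-20953229, minus strand) and of Uhrf1 (chr17:56303087-56303336, plus strand) lies upstream of the one shown. In these 2 genes the motif is thus downstream of another annotated start. It lay in 1 of 3 annotated windows of Dnmt1, in 1 of 2 of Uhrf1 and in the 1 window each of Cdca7 and Hells. None of the windows of Dnmt3a (3 windows), Dnmt3b, Tet1, Tet2 and Tet3 (1 window each) held it. Of all 32851 promoter windows 1.86% held at least 1 of these motifs, and of 27025 genes 2.16% had it in any window. The 7-letter core TTCCCGC, which is contained in TTTCCCGC, was found in Cdca7, in Hells and in the other window of Uhrf1, and in 3.82% of all windows. The promoter of Tet2 held 51 CpG dinucleotides in 250 bases, against 15 in Tet1, 17 in Tet3, 21 in Dnmt3b and 15 to 40 in the windows of Dnmt3a. The windows shown held 26 in Dnmt1, 30 in Uhrf1, 21 in Cdca7 and 28 in Hells. The other windows held 2 and 7 in Dnmt1 and 10 in Uhrf1. The median over all windows was 6. Each motif contains a CpG, and the shares over all windows and genes were not matched for CpG content. The motifs were picked with the expression results and the sequences known, and a match is a description of letters, not a binding site.

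The libraries held 1987266 to 2928236 reads in genes per 129 table and 2465073 to 3321753 per Cast table, with the higher totals in the stimulated samples. Xist had 586 to 922 reads per 129 table against 4613 to 6930 per Cast table, so the Cast copy was the main source of Xist in every sample. Levels are given as CPM, a gene's reads relative to its library's reads in genes after TMM scaling, and changes as log2 fold changes of stimulated against naive from edgeR's quasi-likelihood test, with p-values adjusted over all genes tested by the Benjamini-Hochberg method. CPM are not divided by gene length, so levels are compared within a gene and not between genes. In bulk RNA, fewer cells of a type and less RNA per cell cannot be told apart.

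All 10 genes were tested on both alleles. On the 129 allele 5 of the 10 rose at an adjusted p under 0.05, 3 fell and 2 did not pass the test. Over all 10581 genes tested there, 28.2% rose and 27% fell, so the falls were about as frequent among the 10 genes as elsewhere. On the Cast allele 5 rose, 2 fell and 3 did not pass, where 30.7% of 10365 genes rose and 31.5% fell. Dnmt1, Uhrf1, Cdca7 and Hells rose on both alleles, Dnmt3a and Tet1 fell on both, and Mbd2 passed on neither. The naive and stimulated samples did not overlap for 8 of 10 genes on the 129 allele, against 64.8% of all genes tested, and for 9 of 10 on the Cast allele, against 68.5%. With the counts of both alleles summed, 9 of the 10 passed, all but Mbd2, beside 68.7% of 10343 genes.

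**Figure D1:**
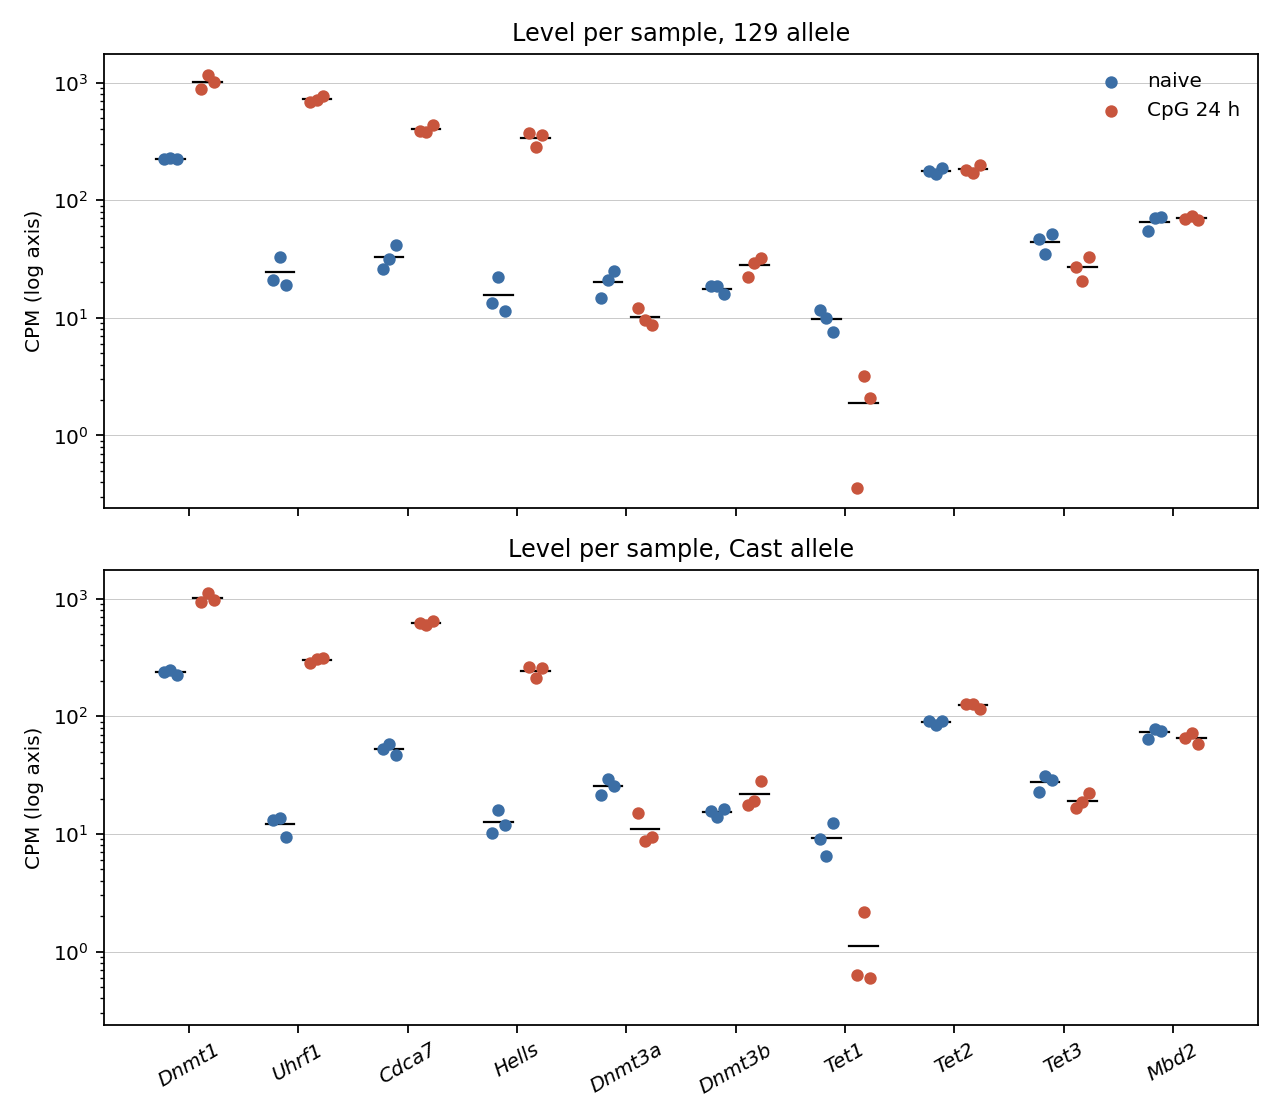
Levels of the 10 genes in each sample on the 129 allele (upper panel) and the Cast allele (lower panel), in TMM-scaled CPM on a log axis; each point is 1 sample, naive in blue and stimulated in red, and each bar is the mean of 3 samples. The 4 maintenance genes separate widely on both alleles (Uhrf1 on the 129 allele from a mean of 24.3 to 721 CPM), while Mbd2 overlaps on both.

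Uhrf1, which recognises hemimethylated DNA, had the largest rise of all 10, on each allele. By 129 reads it stood at 21.1, 32.8 and 19.1 CPM in the naive samples 1, 2 and 3, and at 683, 714 and 766 CPM in the stimulated ones. In the Cast tables it went from 13.2, 13.7 and 9.45 CPM to 282, 307 and 311 CPM. The lowest stimulated sample was thus far above the highest naive one on each allele. The log2 fold change of Uhrf1 was 4.88 (SE 0.22, adjusted p = 1.21e-05 by edgeR) on the 129 allele, the 95th highest of all genes tested, and 4.62 (SE 0.17, adjusted p = 5.25e-07) on the Cast allele, the 123rd highest.

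Hells encodes the SNF2-type remodeller LSH, and Cdca7 its zinc-finger partner. Hells rose from 13.3, 22.0 and 11.5 CPM to 371, 283 and 356 CPM on the 129 allele, and from 10.2, 15.9 and 12.0 CPM to 261, 213 and 256 CPM on the Cast allele. Its replicate 2 was the highest of the naive samples and the lowest of the stimulated ones on both alleles, and the groups stayed apart. The log2 fold change of Hells was 4.42 (SE 0.26, adjusted p = 2.02e-05 by edgeR) and 4.25 (SE 0.19, adjusted p = 6.55e-07), for 129 and Cast. Cdca7 went from 26.2, 31.6 and 41.6 CPM to 387, 380 and 433 CPM on the 129 allele and from 53.1, 58.4 and 47.2 CPM to 623, 600 and 644 CPM on the Cast allele, again with no overlap. Its log2 fold changes were 3.59 (SE 0.19, adjusted p = 1.65e-05 by edgeR) and 3.55 (SE 0.14, adjusted p = 5.25e-07).

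Dnmt1, the maintenance methyltransferase itself, was already present at 225, 229 and 222 CPM in the naive samples of the 129 tables and reached 889, 1163 and 1005 CPM after CpG. Its Cast reads gave 238, 249 and 224 CPM and then 930, 1118 and 972 CPM. The naive samples lay close together, with a standard deviation of 3.90 CPM on the 129 allele, and every stimulated sample was above them. The log2 fold change of Dnmt1 was 2.18 (SE 0.13, adjusted p = 1.92e-05 by edgeR) on the 129 allele and 2.09 (SE 0.13, adjusted p = 2.08e-06) on the Cast allele, a 4.52-fold and 4.24-fold rise. Uhrf1 therefore rose more than Dnmt1 within the same samples. Reads of Uhrf1 per read of Dnmt1, not corrected for gene length, went from 0.108 ± 0.0310 (SD, n = 3) to 0.715 ± 0.0877 on the 129 allele and from 0.0509 ± 0.00755 to 0.300 ± 0.0231 on the Cast allele. The groups did not overlap in this ratio, which was chosen after the values were seen and was not tested.

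**Figure D2:**
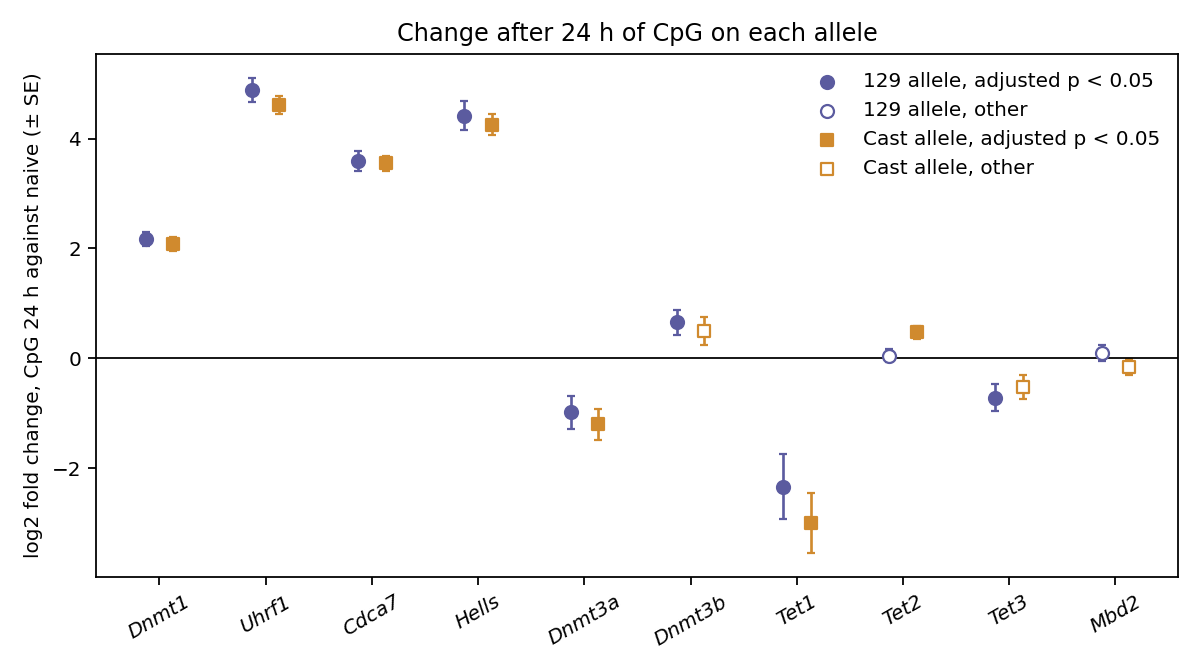
Log2 fold change of stimulated against naive samples for each gene, with SE, on the 129 allele (circles) and the Cast allele (squares); filled symbols have an adjusted p under 0.05 by edgeR (n = 3 samples per group). Uhrf1, Hells, Cdca7 and Dnmt1 lie between 2.09 and 4.88 on both alleles, Tet1 at -2.34 and -3.00.

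Markers of dividing cells moved with the 4 maintenance genes. The summed level of the cycling-cell list, which holds genes such as Mki67, Top2a and Mcm2, was 322 to 591 CPM in the naive samples and 7246 to 10749 CPM in the stimulated samples of the 129 tables, and 334 to 544 and 6453 to 8108 CPM in the Cast tables. All 10 members of that list tested on the 129 allele and all 11 tested on the Cast allele rose, with median log2 fold changes of 4.81 and 4.78. On both alleles replicate 2 had the highest cycling sum in each group. Dnmt1 was likewise highest in replicate 2 in each group on both alleles. Among the naive samples replicate 2 also had the highest Uhrf1 and Hells levels on both alleles, and the highest Cdca7 level on the Cast allele. On the 129 allele Cdca7 was highest in naive replicate 3. Among the stimulated samples Uhrf1 and Cdca7 were highest in replicate 3 on both alleles, and replicate 2 had the lowest Hells level on both. The part of the share of cycling cells in the rise of the 4 genes was not tested.

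The de novo methyltransferases went in opposite directions on the 129 allele. Dnmt3a fell from 14.6, 20.8 and 25.1 CPM in the naive samples to 12.2, 9.57 and 8.73 CPM on the 129 allele, a log2 fold change of -0.98 (SE 0.30, adjusted p = 0.0248 by edgeR). On the Cast allele Dnmt3a fell from 21.5, 29.2 and 25.8 CPM to 15.1, 8.64 and 9.47 CPM, a change of -1.20 (SE 0.28, adjusted p = 0.00406). No stimulated sample reached the lowest naive one. Exons of Dnmt3a share 133 bases with the antisense gene Dnmt3aos in GENCODE M21, and since the use of strand in counting is not given in the sources used here, their reads may be mixed.

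Dnmt3b, the second de novo enzyme, rose on the 129 allele from 18.5, 18.7 and 16.0 CPM to 22.3, 29.4 and 32.5 CPM, a log2 fold change of 0.66 (SE 0.23, adjusted p = 0.0397 by edgeR). On the Cast allele its values were 15.8, 14.1 and 16.3 CPM in the naive samples and 17.6, 19.1 and 28.4 CPM in the stimulated ones, and the change of 0.50 (SE 0.25, adjusted p = 0.112) did not pass. The Cast samples did not overlap either, but stimulated replicate 3 stood well above the other two. Reads of Dnmt3b per read of Dnmt3a, again uncorrected for length and chosen after the values were seen, were 0.935 ± 0.314 (SD, n = 3) in the naive and 2.87 ± 0.964 in the stimulated samples of the 129 tables, and 0.617 ± 0.128 and 2.13 ± 0.920 in the Cast tables. The call of Dnmt3a on the 129 allele ended without naive replicate 2 or 3 or stimulated replicate 2 or 3 (adjusted p = 0.0641, 0.0905, 0.0640 and 0.0789 by edgeR). That of Dnmt3b ended without any 1 replicate but stimulated replicate 1 (adjusted p up to 0.132), with DESeq2 (0.0781), without a filter on low counts (0.0657) and with upper-quartile scaling (0.0924).

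The 3 TET genes did not move alike. Tet1 was the lowest in reads and fell most: its 129 allele gave 27, 24 and 15 reads before and 1, 9 and 6 reads after CpG, or 11.6, 9.97 and 7.52 CPM against 0.360, 3.19 and 2.09 CPM. The Cast counts were 24, 18 and 29 reads and then 2, 7 and 2 reads. All stimulated values of Tet1 lay below all naive ones. The log2 fold change of Tet1 was -2.34 (SE 0.59, adjusted p = 0.0116 by edgeR) on the 129 allele and -3.00 (SE 0.54, adjusted p = 0.00105) on the Cast allele.

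Tet3 went from 46.5, 34.9 and 51.1 CPM to 27.0, 20.6 and 33.2 CPM on the 129 allele, where it fell by 0.71 on the log2 scale (SE 0.24, adjusted p = 0.0383 by edgeR). On the Cast allele it measured 22.6, 31.4 and 28.8 CPM and then 16.7, 18.8 and 22.2 CPM, a log2 change of -0.52 (SE 0.22, adjusted p = 0.0609) that did not pass. Neither allele had overlapping groups. With the replicate number as a block the Cast change of Tet3 passed (adjusted p = 0.0443 by edgeR). The 129 call ended without naive replicate 1 or 3 or stimulated replicate 1 or 2 (adjusted p = 0.101, 0.120, 0.0885 and 0.0977).

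Tet2 differed between the alleles in what could be called. Its 129 levels were 176, 167 and 189 CPM in the naive samples and 180, 171 and 200 CPM after CpG, and these ranges overlapped. Its Cast levels were 91.6, 83.7 and 91.5 CPM and then 128, 128 and 115 CPM, with each stimulated sample above each naive one. The log2 fold change of Tet2 was 0.05 (SE 0.11, adjusted p = 0.729 by edgeR) on the 129 allele and 0.48 (SE 0.12, adjusted p = 0.00663) on the Cast allele. Exons of Tet2 share 43 bases with the antisense gene Gm42567, with the same doubt about strand.

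Mbd2, whose product binds methylated CpG and recruits the NuRD complex, overlapped between the groups on both alleles. It measured 54.2, 70.6 and 71.7 CPM in the naive and 69.8, 73.4 and 67.4 CPM in the stimulated samples of the 129 tables, and 64.4, 78.6 and 75.6 against 64.9, 72.5 and 58.3 CPM in the Cast tables. Its log2 fold changes were 0.10 (SE 0.15, adjusted p = 0.608 by edgeR) and -0.16 (SE 0.15, adjusted p = 0.365).

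Markers of other cells fell beside the genes that fell. The macrophage list summed to 3031 to 6281 CPM in the naive samples and 4.89 to 7.55 CPM in the stimulated samples of the 129 tables, and to 2432 to 5272 and 5.36 to 6.21 CPM in the Cast tables; all 14 members tested fell on each allele. Of that list, 4 markers on the 129 allele and 5 on the Cast allele were at 0 in every stimulated sample, among them Fcna on both alleles. In the 129 tables the T and NK cell list went from 49.0 to 56.7 CPM down to 4.67 to 8.86 CPM, the neutrophil list from 22.4 to 34.1 down to 1.42 to 3.49 CPM, and the erythroid list from 43.6 to 110 down to 1.06 to 1.44 CPM. Few of these markers had enough reads to be tested there: 2 of 10 T and NK cell markers (Cd4 fell and Lck did not pass), 1 of 6 neutrophil markers found and 2 of 4 erythroid markers found, all 3 of which fell. Cd4 made up most of the T and NK cell sum, at 30.7 ± 9.34 CPM (SD, n = 3) in the naive samples, while Cd3e, Cd3d, Cd3g and Cd8a averaged 0.139 to 1.45 CPM. B cell markers were present throughout, at 9872 to 12116 CPM in the naive and 3502 to 4245 CPM in the stimulated samples of the 129 tables, and all 10 tested there and all 9 tested in the Cast tables fell. Fcer2a, which encodes the CD23 used to choose the cells, went from 357 ± 115 (SD, n = 3) to 9.54 ± 2.67 CPM on the 129 allele. The plasmablast list summed to 325 to 516 CPM and then 338 to 380 CPM in the 129 tables, but its members went both ways there. Prdm1 (log2 fold change 3.58, SE 0.75) and Xbp1 (1.16, SE 0.14) rose. Jchain (-2.39, SE 0.37) and Irf4 (-0.51, SE 0.15) fell. The part of these cells in the falls of Dnmt3a, Tet1 and Tet3 was not tested.

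Whether the change after CpG differed between the alleles was tested as the change in the Cast-to-129 ratio, with 1 term per sample. None of the 10 genes passed (edgeR, 1 of the 10 with an unadjusted p under 0.05, namely Tet2, and 0 passing by DESeq2), where 0.917% of 10364 genes did. Tet2 had a ratio change of 0.43 on the log2 scale (SE 0.12, adjusted p = 0.215 by edgeR). With the replicate number as a block, Tet2 passed at 0.43 (SE 0.13, adjusted p = 0.0215), and 7.52% of all genes tested did so. Mbd2 followed at -0.27 (SE 0.14, adjusted p = 0.555), and the 4 maintenance genes lay between -0.27 for Uhrf1 (SE 0.19) and -0.05 for Cdca7 (SE 0.20). Tet1 had the widest error, -0.62 (SE 0.75), and Dnmt3a (-0.26, SE 0.30), Dnmt3b (-0.17, SE 0.27) and Tet3 (0.21, SE 0.31) had wide ones. Only Dnmt1 had a smaller error (SE 0.07) than Tet2. The difference measured for Tet2 did not pass in Tet2 itself, so one of that size was not detectable in genes with wider errors. A gene that did not pass is thus not shown to respond alike on both alleles.

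The Cast share, the Cast reads as a percent of the reads of both alleles, describes the same data per sample. Over autosomal genes it was 52.7% ± 0.793 (SD, n = 3) in the naive and 52.9% ± 0.812 in the stimulated samples. Tet2 had Cast shares of 37.3% (33.6 to 41.0, the 95% Wilson interval), 36.5% (32.9 to 40.4) and 36.2% (32.4 to 40.1) in the naive samples, then 44.7% (41.5 to 48.0), 46.3% (43.0 to 49.5) and 40.5% (37.5 to 43.7) in the stimulated ones. The stimulated shares of Tet2 were thus higher in 3 of 3 samples, by 7.18 points on average, with replicate 3 the nearest to the naive samples. A two-sided exact permutation test gave p = 0.1, the smallest that 3 samples against 3 allow. Mbd2 moved the other way, from 56.3% ± 1.21 (SD, n = 3) to 51.7% ± 1.34, a difference of -4.58 points with no overlap (exact permutation p = 0.1). The intervals cover counting error only.

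For the other 8 genes the shares of the groups overlapped. Over the 9982 genes of the ratio test with reads in every sample, 19% had shares that did not overlap, so 2 of 10 was about the background. With same-numbered samples paired, the share moved in 1 direction in all 3 pairs for 5 of the 10 genes and for 37.2% of all genes. Uhrf1 was read mostly from the 129 allele, with Cast shares of 36.9% ± 4.60 (SD, n = 3) in the naive and 32.5% ± 0.526 in the stimulated samples. Cdca7 was read mostly from the Cast allele, at 65.0% ± 6.95 and 64.3% ± 0.545. The naive values of both were spread more widely, with 60 to 117 reads of Uhrf1 and 193 to 238 of Cdca7 per sample, against 2795 to 3247 and 3017 to 3417 after CpG. Dnmt1 stayed near the autosomal value, at 54.8% ± 0.685 and 53.4% ± 0.979, and Hells measured 48.9% ± 5.20 and 45.6% ± 0.979. Shares of Dnmt3a were 59.7% ± 4.46 and 55.2% ± 3.90, of Dnmt3b 50.04% ± 3.97 and 47.0% ± 4.04, and of Tet3 42.1% ± 7.87 and 45.6% ± 5.09. Tet1 rested on 3 to 16 reads per stimulated sample, and its intervals there ran from 7.15% to 93.9%. A gene's own share also depends on how its reads were given to a strain, which was not tested.

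**Figure D3:**
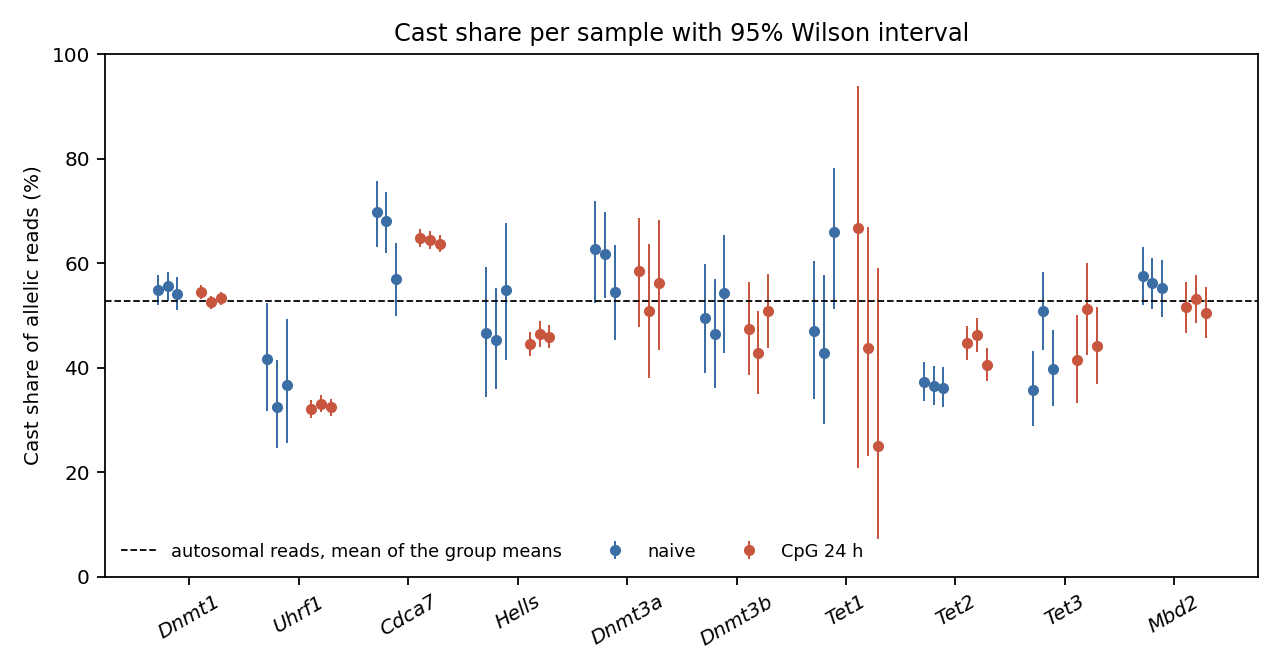
Cast share of the reads of both alleles for each gene in each sample, with 95% Wilson intervals for counting error; naive samples are blue, stimulated ones red, and the dashed line is the autosomal share averaged over the groups. The stimulated samples of Tet2 lie above its naive ones and those of Mbd2 below theirs, while the other 8 genes overlap.

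The wider pathway was read from 5 lists of 50 genes in all, of which 47 were found in the tables and 41 were tested on each allele. On the 129 allele 15 rose, 11 fell and 15 did not pass, and on the Cast allele 17 rose, 10 fell and 14 did not pass. Against the shares over all genes (28.2% higher and 27% lower on the 129 allele, 30.7% and 31.5% on the Cast allele), the falls on the 129 allele were at the background. The partners of maintenance methylation were not uniform: of 8 tested, 4 rose and 1 fell on the 129 allele and 3 rose and 1 fell on the Cast allele, with median log2 fold changes of 0.18 and 0.06 beside -0.01 and -0.04 over all genes. Pclaf, a PCNA-binding protein, rose from 11.7 ± 5.06 (SD, n = 3) to 726 ± 75.5 CPM on the 129 allele (log2 fold change 5.93, SE 0.31) and from 5.92 ± 5.32 to 405 ± 27.1 CPM on the Cast allele (6.04, SE 0.41). Lig1, the ligase that joins Okazaki fragments, rose by 3.55 (SE 0.16) and 3.36 (SE 0.18), and Cdca7l, the paralog of Cdca7, by 2.50 (SE 0.37) and 2.98 (SE 0.27). Usp7, which deubiquitinates UHRF1 and DNMT1, measured -0.25 (SE 0.12) and -0.26 (SE 0.13) and did not pass on either allele. Zbtb24, a zinc-finger activator of Cdca7, fell by 0.86 (SE 0.14) and 0.88 (SE 0.20) on the log2 scale.

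The list of methyl-CpG readers other than Mbd2 also holds Mbd3, Mbd5 and Mbd6, MBD-family genes that are not established readers of methylated CpG. The list gave 4 falls and no rise among 8 tested on the 129 allele, and 4 falls and 1 rise on the Cast allele. Its median log2 fold changes were -0.77 and -0.84. Over all genes 27% and 31.5% fell. Zbtb4 changed most among those called on both alleles, from 55.8 ± 9.26 (SD, n = 3) to 6.99 ± 3.14 CPM on the 129 allele and from 45.5 ± 10.7 to 6.29 ± 2.64 CPM on the Cast allele. Mbd6 had log2 fold changes of -2.32 (SE 0.65) and -1.24 (SE 0.33), and Zbtb38 of -1.09 (SE 0.23) and -0.85 (SE 0.20). The 1 Cast rise was Mbd3, from 8.82 ± 2.06 to 18.2 ± 3.57 CPM; on the 129 allele its change of 0.65 (SE 0.28) did not pass.

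Partners of the de novo and TET enzymes were mixed, with 1 rise and 2 falls among 6 on the 129 allele and 1 rise and 1 fall among 6 on the Cast allele. Cxxc5, a CXXC protein known to interact with TET2, fell from 18.0 ± 2.36 (SD, n = 3) to 4.14 ± 1.45 CPM and from 22.3 ± 2.76 to 6.15 ± 1.94 CPM, for 129 and Cast. Trim28, the corepressor of KRAB zinc-finger proteins, rose by 1.53 (SE 0.18) and 1.43 (SE 0.13). Genes of demethylation by repair gave 5 rises and 2 falls among 10 on the 129 allele and 6 rises and 3 falls on the Cast allele, with medians of 0.57 and 0.71. Over all genes 28.2% and 30.7% rose and 27% and 31.5% fell, so the falls were near the background. Tdg, the glycosylase that excises oxidised 5-methylcytosine, rose by 1.48 (SE 0.15) and 1.94 (SE 0.12), Neil3 by 3.40 (SE 0.28) and 3.36 (SE 0.49), and Gadd45b by 2.96 (SE 0.22) and 3.17 (SE 0.22). Gadd45a went the other way, with log2 fold changes of -2.94 (SE 0.35) and -2.60 (SE 0.36), as did Neil1, with -2.92 (SE 0.40) and -1.97 (SE 0.37).

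The list for methyl donors and 2-oxoglutarate, the TET cosubstrate, holds genes that make or use these compounds, and the supply itself was not measured. Of 9 genes tested, 5 rose and 2 fell on the 129 allele, and 6 rose and 1 fell on the Cast allele, with medians of 0.86 and 0.76. Among all genes tested, 28.2% and 30.7% rose and 27% and 31.5% fell. Got2, the mitochondrial aspartate aminotransferase, rose by 2.38 (SE 0.14) and 2.39 (SE 0.13), Mtrr, which reactivates methionine synthase, by 1.24 (SE 0.42) and 1.35 (SE 0.17), and Idh2, the mitochondrial isocitrate dehydrogenase, by 1.24 (SE 0.23) and 1.21 (SE 0.21). Mat2a, which makes S-adenosylmethionine, rose by 0.90 (SE 0.19) and 1.21 (SE 0.17), while Mat2b, which encodes the regulatory subunit of the same enzyme, fell by 0.51 (SE 0.15) and 0.59 (SE 0.15) on the log2 scale. Idh1 went the other way from Idh2, with a log2 fold change of -0.85 (SE 0.19, adjusted p = 0.00683 by edgeR) on the 129 allele. On the Cast allele the change of Idh1, -0.51 (SE 0.26, adjusted p = 0.112 by edgeR), did not pass. Of the genes named in these lists, Usp7, Zbtb24, Mbd3, Tdg, Neil1, Idh1, Mat2a and Mat2b were chosen after their values were seen.

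**Figure D4:**
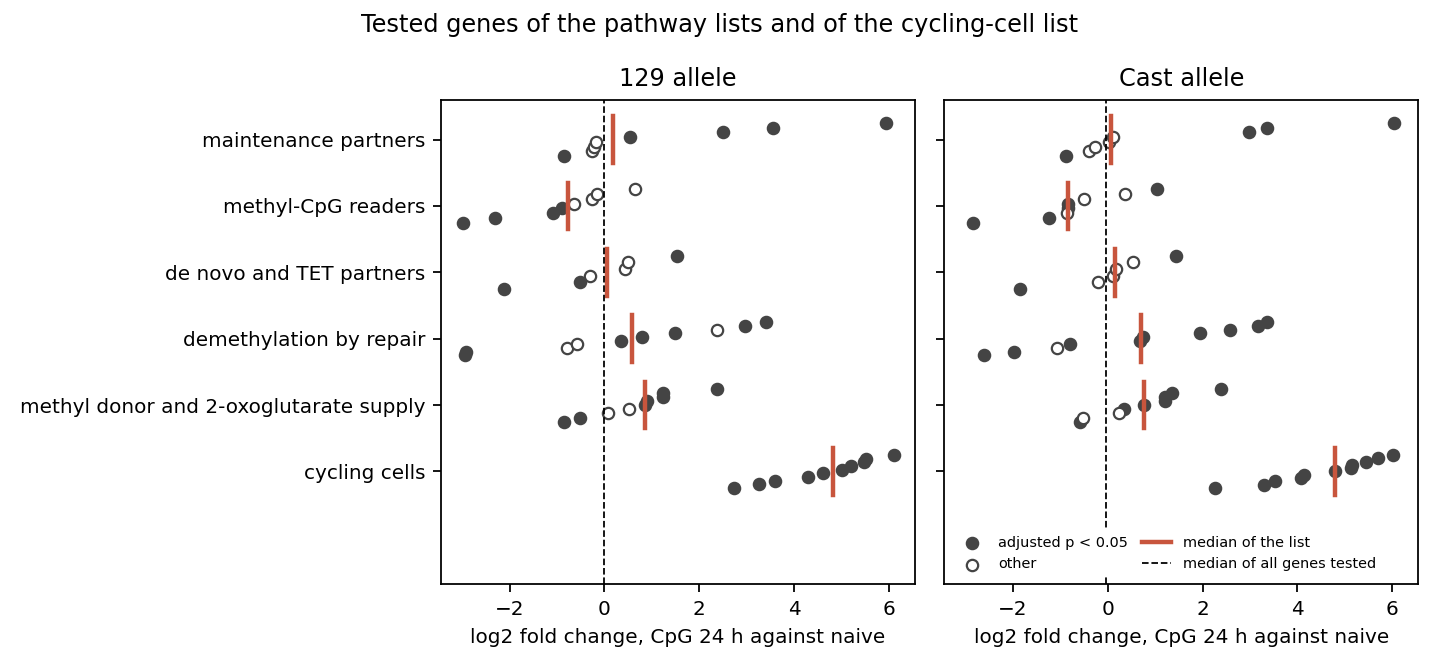
Log2 fold change of every tested gene of the 5 pathway lists and of the cycling-cell list, on the 129 allele (left) and the Cast allele (right); filled points have an adjusted p under 0.05 by edgeR, red bars are list medians, and the dashed line is the median of all genes tested. The cycling-cell list has medians of 4.81 and 4.78, while the pathway lists spread over both directions with medians from -0.84 to 0.86.

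Likeness of pattern was measured as Pearson's r of log2 CPM over 12 values (6 samples on 2 alleles, each centred within its allele). Each gene was compared with 4240 well-covered genes outside the set, and genes of the set were not compared with each other. The values share libraries and depth, so r is a description. Dnmt1 was most like Cct2, Uhrf1 most like Ddx1, Cdca7 most like Prim1 and Hells most like C330027C09Rik, each with r of at least 0.998. Many other genes followed the same 2-group pattern: 129 genes had r of at least 0.99 with Dnmt1, 144 with Uhrf1, 116 with Cdca7 and 80 with Hells. Tet1 was most like Nsf (r = 0.985), Dnmt3a most like Bfar (0.967), Tet3 most like Fam76b (0.939), Tet2 most like Nfyb (0.935) and Dnmt3b most like Diablo (0.933), and Mbd2 reached only 0.841 with Gpatch2. No gene had r of at least 0.99 with any of these 6.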

How the data were processed

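RNA was isolated with TRIzol and made into Illumina TruSeq Stranded Total RNA libraries, per the labels. The authors deposited raw read counts per gene, 1 table for the 129 and 1 for the Cast annotation of each of the 6 samples; the submitters' processing notes name STAR, featureCounts, Subread 2.0.0 and mm10, with no role. The summary rows (unassigned, ambiguous and similar reads) were left out. Of aligned reads, 44.5% to 67.1% per table matched no counted gene feature, more in naive than in stimulated samples. Whether these reads lay outside genes, in introns or on the other strand is not given in the sources used here.

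Counts were fitted per allele over all genes in edgeR 4.0.16 (R 4.3.3; TMM, filterByExpr, robust quasi-likelihood, Benjamini-Hochberg at 0.05), with SE taken from the test's p and degrees of freedom. Of 28374 genes matched by name between the tables, the ratio test used the 10364 whose summed 129 and Cast reads came to 10 or more in 3 or more samples. Shares have 95% Wilson intervals. DESeq2 1.42.0 and other scalings and filters were tried. The main fit of each allele and that of the ratio test were also run on simulated data, and the alternative fits were not.

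Same-numbered naive and stimulated samples deviated together (r = 0.560, 0.443 and 0.608 on the 129 allele, and 0.228, 0.163 and 0.246 on the Cast allele). The main fits and the permutation tests did not use this pairing. The numbers, taken from the sample titles, served as a block in added fits, and blocked values are given where they change a call. All 10 genes were named, with up to 3 genes per pathway list that changed most among those called on both alleles in the same direction. The genes and lists were chosen with earlier results of these data known.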

Additional observations from a re-analysis of the deposited data

Results flagged for a closer look

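The difference between the alleles in the response of Tet2 to CpG passed the test only with the replicate number as a block. There the Cast-to-129 ratio of Tet2 changed by 0.43 on the log2 scale (SE 0.13, adjusted p = 0.0215 by edgeR), against 0.43 (SE 0.12, adjusted p = 0.215) without it. Over the fits that each left out 1 sample, without the block, the change ranged from 0.36 to 0.53 and the adjusted p from 0.225 to 0.458. Tet2 shares 43 exonic bases with an antisense gene, and the part of that overlap was not tested.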

How the results depend on the processing

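Uhrf1, Hells, Cdca7, Dnmt1 and Tet1 on both alleles, and Dnmt3a and Tet2 on the Cast allele, kept their direction and their call under every scaling, filter, tool, block and left-out sample tried. The number of the 10 genes called on the 129 allele was 8 and ranged from 5 to 7 with 1 sample left out (genes in all, 5216 to 5477 against 5842); on the Cast allele it stayed at 7 (5987 to 6319 against 6445). The replicate block raised the genes called in the ratio test from 95 to 779 and those of the 10 from 0 to 1, and the number whose Cast share moved in 1 direction in all pairs was 5 (over all genes, 37.2%), against 2 whose groups did not overlap; it changed no other call than those given above. Leaving out 1 sample left 14 to 26 genes called in the ratio test, 0 of the 10. It left 2 to 5 of the 10 with shares that did not overlap. Fewer samples make such separation more frequent by arrangement alone. The share over all genes was not computed with 1 sample left out, so this range has no background. Directions that turned were all of uncalled values: Tet2 on the 129 allele with upper-quartile scaling (-0.095) and without stimulated replicate 3 (-0.012); Mbd2 there with upper-quartile scaling (-0.049) and without 1 sample (-0.018, without naive replicate 1, to 0.172); the ratio change of Cdca7 with each allele's own library size (0.0027) and without naive replicate 1 or 2 (range without 1 sample -0.298 to 0.0995); its share difference without the same samples (-4.61 to 1.79 points); and that of Tet1 without naive or stimulated replicate 3 (-17.6 to 3.27 points). Upper-quartile scaling moved the median of all genes to -0.16 (129) and -0.17 (Cast), and under it Tet3 passed on the Cast allele (adjusted p = 0.0264 by edgeR). In the counts of both alleles summed, which are no result on either allele, Tet3 (adjusted p = 0.00973 by edgeR), Dnmt3b (0.0171) and Tet2 (0.0317) passed, and Mbd2 stood at -0.0080. For all these changes the cause was not tested. Depth limits Tet1, with at most 9 reads per allele in a stimulated sample.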
